A study of Homo sapiens with 6 samples.

Results

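The genes described here encode the proteins of blood coagulation and fibrinolysis, as they were expressed in HepG2 cells with and without knockdown of PAIP1. The group was set by a list of 37 gene symbols, of which 35 were found among the 30987 genes of the count table. F9 and THBD were not analysed here. The list was drawn up by function. HepG2 cells, which derive from a human hepatic tumor, received either non-targeting control siRNA (Ctrl, 3 libraries) or siRNA3 against PAIP1 (siPAIP1, 3 libraries), and both groups were harvested after 48 h. Both were transfected with the same lipid reagent, and a single siRNA against PAIP1 was sequenced, so its own effects and those of PAIP1 loss cannot be told apart. The study calls the libraries of a group biological replicates, and poly(A) RNA was sequenced.

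Clotting factors are made largely by hepatocytes and circulate as inactive precursors. Tissue factor (F3) with factor VIIa (F7) starts a chain of proteases in which factor Xa (F10), with its cofactor factor V (F5), turns prothrombin (F2) into thrombin, and thrombin turns fibrinogen (FGA, FGB and FGG chains) into fibrin. Several factors need a vitamin K-dependent carboxylation of glutamate residues, carried out by GGCX with vitamin K recycled by VKORC1. Antithrombin (SERPINC1), heparin cofactor II (SERPIND1), protein C (PROC) and TFPI restrain the chain, and plasmin, made from plasminogen by the activators PLAT and PLAU and inhibited by SERPINF2, dissolves the clot.

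Total counts per library ranged from 29313211 to 34659866. PAIP1 itself had 94.5, 81.5 and 89.9 CPM in Ctrl (counts scaled to library size with TMM factors) and 27.8, 21.7 and 20.1 in siPAIP1. It fell to 26.2% of Ctrl (log2 fold change -1.93 ± 0.13 SE, edgeR adjusted p = 0.000918). The library siPAIP1 replicate 3 stood apart, with a summed FPKM of 412788 beside 480363 to 499948 in the others. By the study's alignment summary it and Ctrl replicate 2 held more multiply mapped reads than the rest of their group. Adjusted p denotes the Benjamini-Hochberg value of edgeR's quasi-likelihood test throughout. All 8 liver cell markers were present, from HNF4A with a mean of 28.8 FPKM in Ctrl to ALB with 710.0. FPKM denotes the authors' values of fragments scaled to exon length and library size. Some markers of endothelium (CDH5, TEK, EMCN), blood cells (CSF1R, CD163, GP9) and fibroblasts (DCN, LUM) had a mean of at most 0.00667 FPKM in Ctrl. PTPRC, of blood cells, had no FPKM row and 1 fragment in all 6 libraries. Other genes of the same marker lists were expressed. Means in Ctrl were 0.187 FPKM for PECAM1, 0.54 for TIE1, 0.43 for ITGA2B, 0.89 for CD68 and 0.467 for AIF1. TUBB1 had 1.94, ACTA2 43.7 and LYZ 269.9 FPKM. PECAM1 stood at 55.1% of Ctrl, lower in each siPAIP1 library (edgeR adjusted p = 0.0715). The part of these genes in the results was not tested. Summed CPM ran from 3.32 to 4.49 in Ctrl and 2.42 to 4.01 in siPAIP1 for 5 endothelial markers, and from 8.53 to 9.58 and 4.67 to 5.46 for 4 platelet markers. It ran from 513 to 567 and 376 to 507 for 7 monocyte markers, where LYZ made up most of the sum, and from 84.5 to 90.6 and 122 to 152 for 5 fibroblast markers, where ACTA2 did.

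FGG and FGA, which encode chains of fibrinogen, were at the top of the group in Ctrl cells. Read per length, FGG had 236.31, 219.89 and 202.15 FPKM in Ctrl replicates 1 to 3, FGA 139.21, 135.05 and 119.90, and FGB 86.48, 80.93 and 72.29. The ranges of the 3 chains did not overlap. Together they made up 35.1% to 39.2% of the summed FPKM of the group in Ctrl. Next to FGA stood SERPINF2 (108.84 to 113.99 FPKM), F2 (108.63 to 110.63) and SERPINA5 (98.27 to 111.76), whose ranges overlapped one another. TFPI (75.03 to 87.87), FGB and SERPIND1 (72.67 to 77.64) also overlapped, and PROC (59.07 to 68.68) lay below them. In all, 16 of the 35 measured genes had a mean of at least 10 FPKM in Ctrl and 26 at least 1. At the low end F13B, PLAT, PLAU and KNG1 had mean levels of 0.333, 0.357, 0.367 and 0.527 FPKM, and F8 had 0.0433.

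**Figure D1:**
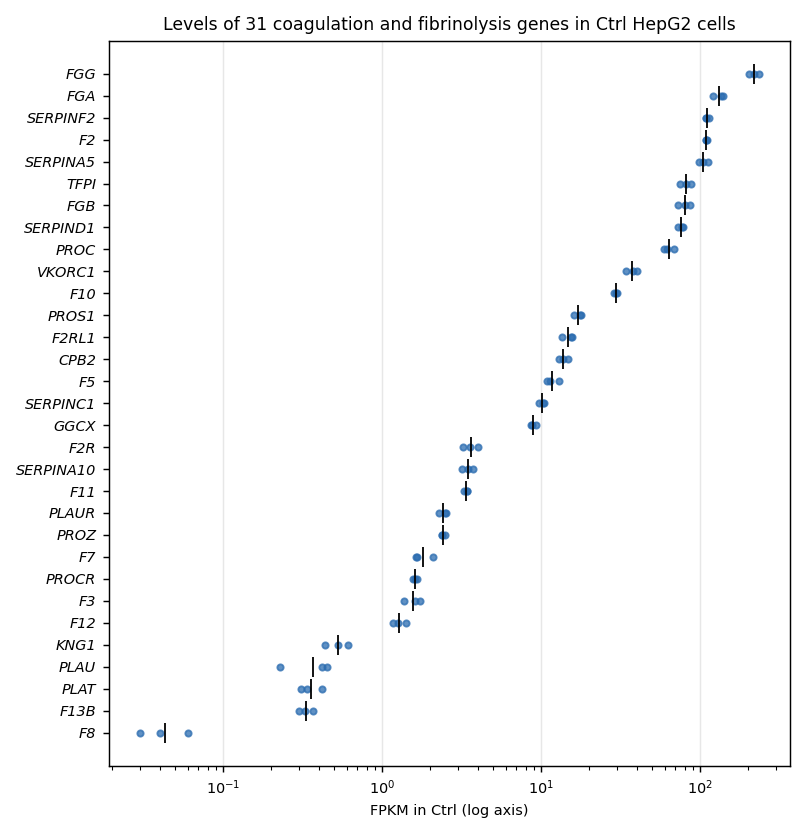
FPKM of the 31 tested genes in the 3 Ctrl libraries (points; the bar is the mean) on a log axis. FGG is highest with a mean of 219 FPKM and F8 lowest with 0.0433.

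For 4 of the genes the data held almost no reads. PLG, the plasminogen gene, had counts of 2, 1 and 5 in Ctrl and 0 in each siPAIP1 library, where a count of 0 allows up to 3 fragments or 0.0857 to 0.0994 CPM. Counts per library were at most 3 for TFPI2, an inhibitor of several serine proteases, at most 2 for KLKB1 (plasma prekallikrein) and at most 1 for HRG, a plasma glycoprotein that binds plasminogen and heparin. These limits cover counting error only. Exons of another gene on the same strand cover 2116 of the 2714 exon bases of KLKB1. How reads shared by 2 genes were counted is not given in the sources used here. The 4 genes were removed by the filter on low counts and differences in them were not detectable at this depth.

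The comparison of siPAIP1 with Ctrl asked which of these genes changed when PAIP1 was knocked down. Of the 31 genes tested, 7 fell (KNG1, PROZ, SERPINF2, CPB2, GGCX, F5 and F10) and 2 rose (PLAU and F2R) at an adjusted p under 0.05 in edgeR's quasi-likelihood test. The 7 are 22.6% of the genes tested and the 2 are 6.45%. Among all 15528 genes tested, 6.2% were called lower and 5.68% higher. When a change of 2-fold or more was also required, KNG1, PROZ and SERPINF2 remained on the lower side and PLAU on the higher, beside 1.1% and 1.11% of all genes. All 3 siPAIP1 libraries lay below all Ctrl libraries for 15 of the 31 genes and above them for 4, as they did for 17.7% and 18.9% of all tested genes. The median log2 fold change of the 31 genes was -0.16, beside 0.034 over all tested genes.

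**Figure D2:**
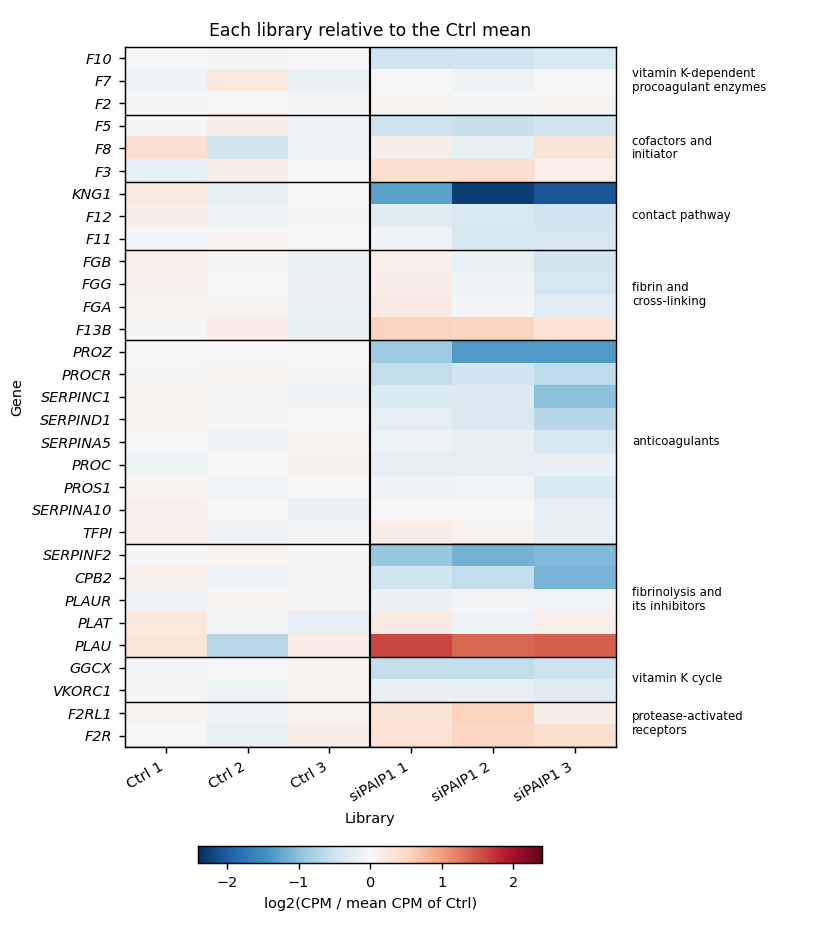
Heat map of log2(CPM over the mean CPM of Ctrl) for the 31 tested genes (rows, grouped by role) in the 6 libraries (columns). KNG1, PROZ and SERPINF2 are low and PLAU is high in each of the 3 siPAIP1 libraries, while SERPINC1, SERPIND1 and CPB2 are lowest in siPAIP1 replicate 3.

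Most general liver markers were lower in the same libraries. Of 8 liver cell markers, 5 fell (62.5%, beside 6.2% of all tested genes called lower). The summed CPM of all 8 was 7388 to 7969 in Ctrl and 4668 to 6076 in siPAIP1, lowest in replicate 3. AFP, HNF4A and APOB stood at 72.6%, 84.2% and 96.3% of Ctrl and were not called (edgeR adjusted p of 0.129, 0.268 and 0.81). Of the siPAIP1 libraries, replicate 3 had the highest APOB (1272 CPM) and HNF4A (236.8 CPM). ALB, the main plasma protein gene, fell to 58.6% of Ctrl (log2 fold change -0.77 ± 0.20 SE, edgeR adjusted p = 0.0455), APOH to 56.9%, TF to 60.6%, TTR to 69.7% and APOA1 to 70.1%. Each of these 5 calls held in 8 or 9 of 15 alternative analyses. The part of this wider shift in the fall of coagulation genes was not tested. In bulk RNA, fewer cells with a transcript and less of it per cell cannot be told apart.

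Genes of fibrinolysis changed in both directions. SERPINF2, which encodes alpha-2-antiplasmin, the main inhibitor of plasmin, had 286, 301 and 283 CPM in Ctrl and 154, 132 and 139.6 in siPAIP1. Each siPAIP1 library lay far below each Ctrl library, and siPAIP1 replicate 3 lay between the other siPAIP1 libraries. The gene (chr17:1742836-1755265, GRCh38, plus strand) fell to 49.0% of Ctrl (log2 fold change -1.03 ± 0.081 SE, edgeR adjusted p = 0.00133). In each of the 15 alternative analyses the call held, with log2 fold changes between -1.10 and -0.98.

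CPB2 encodes a carboxypeptidase, known as TAFI, which trims fibrin so that plasminogen binds it less. It had 29.1, 25.7 and 26.5 CPM in Ctrl and 19.6, 18.1 and 12.5 in siPAIP1. The groups did not overlap, and siPAIP1 replicate 3 was the lowest library. CPB2 (chr13:46053186-46105033, minus strand) fell to 61.8% of Ctrl (log2 fold change -0.70 ± 0.16 SE, edgeR adjusted p = 0.0339). Its adjusted p exceeded 0.05 without Ctrl replicate 1 (0.132), 2 (0.0858) or 3 (0.119) and without siPAIP1 replicate 2 (0.074). CPB2-AS1 lies on the opposite strand over 98 of the 6699 exon bases of CPB2, and it rose (edgeR adjusted p = 0.0493) by 1.32 on the log2 scale.

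PLAU, which encodes urokinase, an activator of plasminogen, was low in Ctrl with 1.35, 0.693 and 1.25 CPM, from counts of 45, 23 and 38. In siPAIP1 it had 3.32, 2.83 and 2.95 CPM, from counts of 114, 99 and 89. All siPAIP1 libraries were above all Ctrl libraries, and Ctrl replicate 2 was the lowest. PLAU (chr10:73909177-73917496, plus strand) rose 2.77-fold (log2 fold change 1.47 ± 0.25 SE, edgeR adjusted p = 0.0127). Without Ctrl replicate 3 its adjusted p was 0.0615. The annotation places C10orf55 on the opposite strand over 915 of the 2949 exon bases of PLAU, and whether the counting used strand is not given in the sources used here. C10orf55 had at most 0.0583 CPM in any library.

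PLAUR, the cell surface receptor of urokinase, had 5.60, 6.15 and 6.07 CPM in Ctrl and 5.36, 5.80 and 5.66 in siPAIP1, and these ranges overlapped. Its log2 fold change was -0.08 with a 95% interval of -0.33 to 0.16. The log2 ratio of PLAU to PLAUR counts within a library averaged -2.50 ± 0.577 over the 3 Ctrl libraries and -0.89 ± 0.179 over the 3 siPAIP1 libraries (SD). The difference of 1.61 had p = 0.1 in an exact two-sided permutation test (0.1 after adjustment over 5 ratios). No lower p is possible with 3 libraries per group. PLAT, the tissue-type activator, had a log2 fold change of 0.07 with an interval of -0.42 to 0.57, from 29 to 43 fragments per library.

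**Figure D3:**
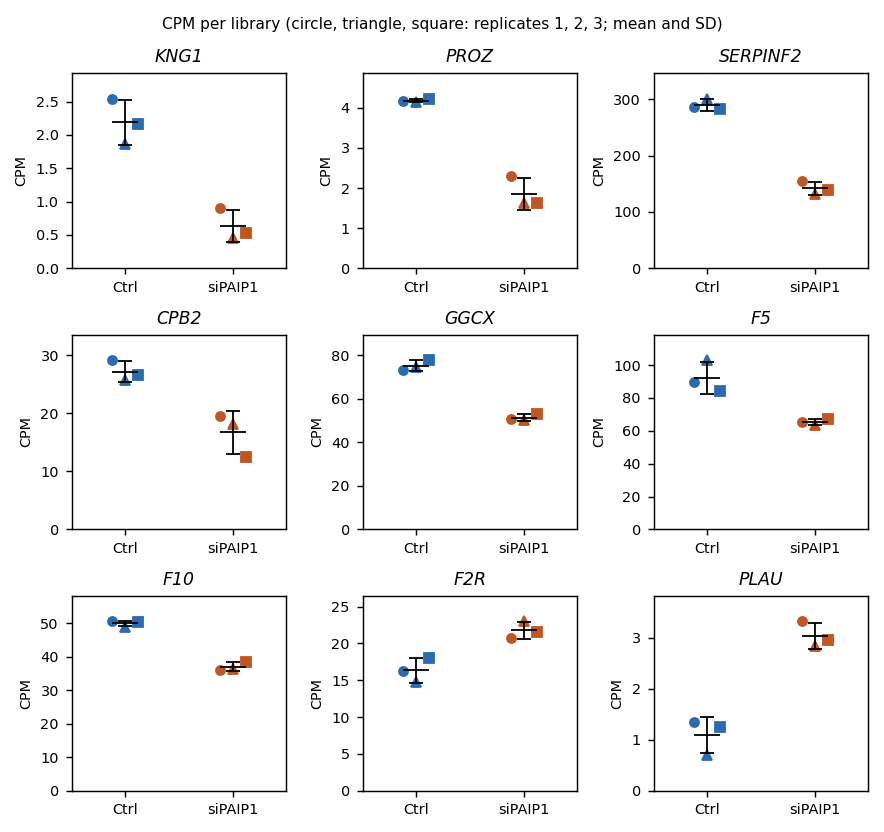
CPM per library of the 9 genes with an adjusted p under 0.05, for Ctrl and siPAIP1 (3 libraries each, a symbol per replicate; bars are mean and SD; axes start at 0). In each panel the points of the groups do not overlap, and PLAU and F2R are the genes that are higher in siPAIP1.

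Among the genes of the vitamin K cycle, GGCX, the gamma-glutamyl carboxylase, had 73.1, 74.6 and 77.8 CPM in Ctrl and 50.6, 50.2 and 53.1 in siPAIP1. The libraries of each group lay close together and the groups were well apart. GGCX (chr2:85544720-85561532, minus strand) fell to 68.3% of Ctrl (log2 fold change -0.55 ± 0.067 SE, edgeR adjusted p = 0.00448), and the call held in all 15 alternative analyses. Exons of MAT2A on the opposite strand cover 562 of its 13307 exon bases. MAT2A had a log2 fold change of 0.06 (edgeR adjusted p = 0.648). VKORC1, the vitamin K epoxide reductase, had 86.7, 79.0 and 90.8 CPM in Ctrl and 75.6, 74.2 and 69.0 in siPAIP1. These ranges did not overlap, but the log2 fold change of -0.23 (SE 0.080) had an edgeR adjusted p of 0.109. Exons of other genes cover 1271 of the 2190 exon bases of VKORC1 on the opposite strand and 761 on the same strand. The part of these overlaps in its counts was not tested.

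Among the 6 substrates of GGCX that were in the list and had data, PROZ and F10 fell, beside 6.2% of all tested genes. F2, F7, PROC and PROS1 were not called. F7, F10 and PROZ are direct neighbours on the plus strand of chromosome 13, with 2113 bases between F7 and F10, 9118 between F10 and PROZ and no protein-coding gene in either gap. The exact permutation test of the F7 to F10 ratio cannot go below p = 0.1 with 3 libraries per group. It could therefore not decide whether F7 and F10 differed. The upstream bases of these neighbours are shown because F10 and PROZ were called and F7 was not. They are given 5' to 3' and end at the transcript start of RefSeq (GRCh38.p14), with capitals at any match to CAAAGT, a core of HNF4 sites, or TTNCNNAA, a C/EBP pattern, on either strand.
F7, chr13:113105541-113105790, plus strand: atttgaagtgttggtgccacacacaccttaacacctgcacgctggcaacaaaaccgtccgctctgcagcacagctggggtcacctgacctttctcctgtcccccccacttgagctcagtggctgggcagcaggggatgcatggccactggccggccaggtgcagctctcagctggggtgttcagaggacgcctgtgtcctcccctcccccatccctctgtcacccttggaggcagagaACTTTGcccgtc
F10, chr13:113122549-113122798, plus strand: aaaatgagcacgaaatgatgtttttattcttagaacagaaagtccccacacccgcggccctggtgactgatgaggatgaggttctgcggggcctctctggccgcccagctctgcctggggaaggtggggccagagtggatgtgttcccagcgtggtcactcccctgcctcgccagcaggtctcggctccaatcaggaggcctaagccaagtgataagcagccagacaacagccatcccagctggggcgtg
PROZ, chr13:113158398-113158647, plus strand: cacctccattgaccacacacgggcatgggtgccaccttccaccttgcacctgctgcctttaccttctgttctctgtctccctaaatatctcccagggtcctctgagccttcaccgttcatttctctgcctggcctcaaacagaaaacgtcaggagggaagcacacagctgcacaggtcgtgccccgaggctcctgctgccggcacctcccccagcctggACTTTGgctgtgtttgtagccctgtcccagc

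F7 and PROZ each held 1 match to CAAAGT, read there as its reverse complement, and F10 held neither motif. Among 14418 windows of the same length from genes tested here, 7.48% held CAAAGT and 24.6% TTNCNNAA. Among the 32 windows of tested coagulation genes the shares were 21.9% and 62.5%. Some genes have more than 1 window, and those of FGB overlap and hold the same matches. No window of SERPINF2, SERPINC1, F2R or PLAT was used here.

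F7, the zymogen that joins tissue factor, had 5.81, 7.38 and 5.64 CPM in Ctrl and 6.35, 5.74 and 6.23 in siPAIP1, with overlapping ranges. Its log2 fold change was -0.04 with a 95% interval of -0.36 to 0.28. F10 had 50.6, 49.0 and 50.3 CPM in Ctrl and 36.0, 36.4 and 38.6 in siPAIP1, so that the groups were far apart compared with the spread within each. F10 (chr13:113122799-113149529) fell to 74.1% of Ctrl (log2 fold change -0.43 ± 0.068 SE, edgeR adjusted p = 0.00957). Its adjusted p reached 0.0608 without Ctrl replicate 1, 0.0576 without Ctrl replicate 3 and 0.0541 without siPAIP1 replicate 2. The log2 ratio of F7 to F10 counts was -3.0 ± 0.237 in Ctrl and -2.60 ± 0.0846 in siPAIP1 (SD over 3 libraries each), with the same exact permutation p of 0.1.

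PROZ, protein Z, a cofactor that helps the inhibitor SERPINA10 to block factor Xa, had 4.16, 4.16 and 4.23 CPM in Ctrl and 2.30, 1.63 and 1.62 in siPAIP1. The Ctrl libraries were nearly equal and every siPAIP1 library was well below them. PROZ (chr13:113158648-113172386) fell to 44.4% of Ctrl (log2 fold change -1.17 ± 0.17 SE, edgeR adjusted p = 0.00779) from 129 to 139 fragments per Ctrl library, and the call held in all 15 alternative analyses. SERPINA10 itself had 22.8, 21.3 and 19.2 CPM in Ctrl and 21.3, 21.0 and 17.9 in siPAIP1, with overlapping ranges and a log2 fold change of -0.07 (95% interval -0.31 to 0.17).

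F2, prothrombin, had 250.1, 247.3 and 241.9 CPM in Ctrl and 253.5, 239.3 and 254.3 in siPAIP1. The ranges overlapped, and the log2 fold change of 0.02 had an interval of -0.14 to 0.17. PROC had 126, 134 and 144 CPM in Ctrl and 117, 114 and 119.7 in siPAIP1. The ranges were separate, but the log2 fold change of -0.21 (SE 0.074) had an adjusted p of 0.118, or 0.0268 without siPAIP1 replicate 3 (edgeR's quasi-likelihood test). PROS1, protein S, the cofactor of activated protein C, had a log2 fold change of -0.16 with an interval of -0.39 to 0.06, or -0.07 without siPAIP1 replicate 3.

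Among cofactors, F5 had 89.5, 103 and 84.3 CPM in Ctrl and 65.1, 63.6 and 67.2 in siPAIP1. Every siPAIP1 library was below every Ctrl library. F5 (chr1:169511951-169586588, minus strand) fell to 70.7% of Ctrl (log2 fold change -0.50 ± 0.090 SE, edgeR adjusted p = 0.0142). The adjusted p was 0.0632 without Ctrl replicate 1, 0.0649 without siPAIP1 replicate 2 and 0.0527 with the replicate number as a block. F8, the cofactor of factor IX, had only 11 to 20 fragments per library, and its log2 fold change of 0.10 had an interval from -0.64 to 0.84. F3, the membrane protein that starts coagulation, had 3.501, 4.49 and 4.07 CPM in Ctrl and 5.24, 5.34 and 4.37 in siPAIP1. These ranges overlapped through siPAIP1 replicate 3, and the log2 fold change was 0.31 (± 0.15 SE, edgeR adjusted p = 0.208).

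KNG1, of the contact pathway, had the largest fall of the 31 tested genes. It encodes kininogen, the precursor of bradykinin and a cofactor of contact activation. KNG1 counts were 85, 62 and 66 in Ctrl and 31, 16 and 16 in siPAIP1, or 2.54, 1.87 and 2.16 against 0.903, 0.457 and 0.530 CPM. The groups did not overlap, and siPAIP1 replicate 1 was the highest of its group. KNG1 (chr3:186717348-186744410, plus strand) fell to 28.9% of Ctrl (log2 fold change -1.79 ± 0.29 SE, edgeR adjusted p = 0.0104). The adjusted p was 0.0605 without Ctrl replicate 1 and 0.0578 without Ctrl replicate 3. HRG-AS1 lies on the opposite strand over 650 of the 4603 exon bases of KNG1. The upstream bases of KNG1 held 1 match to TTNCNNAA (capitals) and none to CAAAGT.
KNG1, chr3:186717109-186717358, plus strand: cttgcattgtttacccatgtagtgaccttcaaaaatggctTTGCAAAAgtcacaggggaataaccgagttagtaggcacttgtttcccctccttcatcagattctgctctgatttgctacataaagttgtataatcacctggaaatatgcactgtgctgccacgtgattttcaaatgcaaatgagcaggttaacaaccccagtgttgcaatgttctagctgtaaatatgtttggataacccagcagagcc

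F11 and F12, zymogens of the contact pathway, stood lower in all siPAIP1 libraries but were not called. F11 had 11.04, 11.7 and 11.3 CPM in Ctrl and 10.6, 8.72 and 8.58 in siPAIP1 (log2 fold change -0.29 ± 0.11 SE, edgeR adjusted p = 0.134). F12 had 3.23, 2.71 and 2.85 CPM in Ctrl and 2.36, 2.29 and 2.12 in siPAIP1 (-0.38 ± 0.15 SE, edgeR adjusted p = 0.145). Ratios of F11 to KLKB1 and of HRG to KNG1, each a pair of neighbouring genes, were not computed because of counts of 0.

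The fibrinogen genes, which lie side by side on chromosome 4, were not called, with overlapping ranges and edgeR adjusted p values of 0.566 to 0.937. FGA had 615, 601 and 520.3 CPM in Ctrl and 665, 565 and 484 in siPAIP1, with a log2 fold change of -0.02 (95% interval -0.32 to 0.28). FGB had 191, 179.9 and 157 against 192, 157 and 129.7 CPM, with -0.14 (-0.48 to 0.21). FGG had 556, 521 and 467 against 574, 486 and 389 CPM, with -0.09 (-0.43 to 0.25). All 3 chains had their lowest siPAIP1 value in replicate 3, and without that library the log2 fold changes of FGA, FGB and FGG were 0.08, -0.01 and 0.04.

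Ratios between chains were close in the 2 groups. That of FGB to FGA ran from -1.74 to -1.69 in Ctrl and from -1.90 to -1.79 in siPAIP1 (log2). For FGG to FGA the groups met at -0.21, in Ctrl replicate 2 and siPAIP1 replicate 1. For FGG to FGB they met at 1.58, in Ctrl replicate 3 and siPAIP1 replicates 1 and 3. How often other gene pairs differ as much was not examined. The log2 ratio of FGB to FGA counts was -1.72 ± 0.0278 in Ctrl and -1.85 ± 0.0548 in siPAIP1, that of FGG to FGA -0.17 ± 0.0323 and -0.25 ± 0.0592, and that of FGG to FGB 1.55 ± 0.022 and 1.60 ± 0.0289 (SD, n = 3 each). Each of the 3 differences had p = 0.1 in an exact permutation test, its lowest possible value. The difference in FGG to FGA was -0.08, or -0.04 without siPAIP1 replicate 3, and that in FGG to FGB was 0.05, or 0.03 without siPAIP1 replicate 2. F13B, the carrier subunit of the fibrin-linking factor XIII, had 22 to 31 fragments in Ctrl and 31 to 41 in siPAIP1. Its CPM ranges did not overlap, and the log2 fold change of 0.46 (SE 0.21) had an adjusted p of 0.198 in edgeR's quasi-likelihood test.

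**Figure D4:**
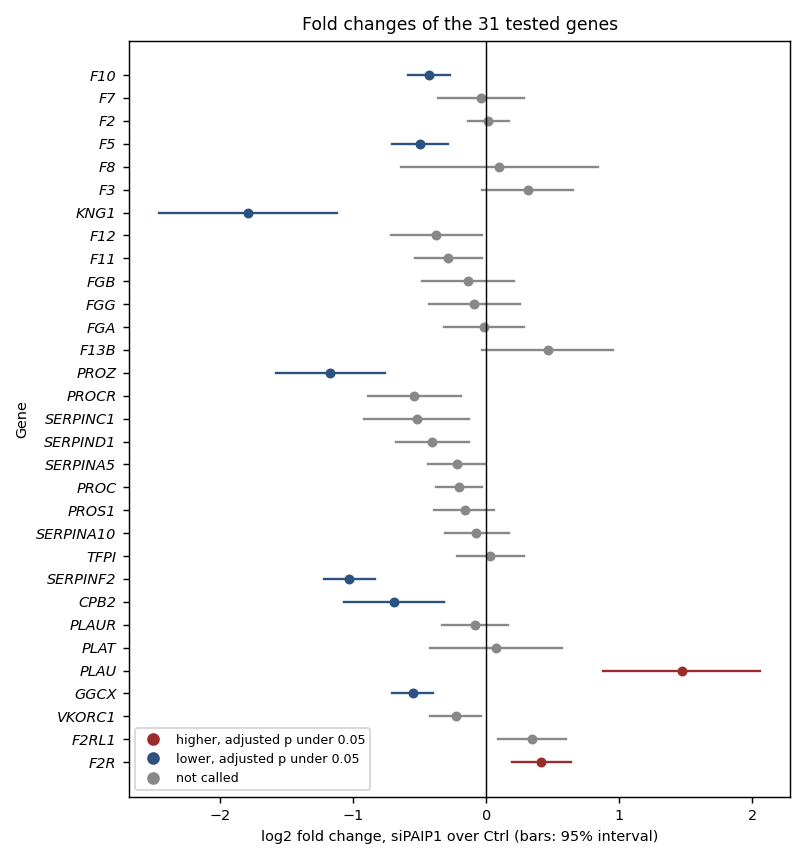
Log2 fold changes of siPAIP1 over Ctrl for the 31 tested genes, ordered by role as in the heat map, with 95% intervals from edgeR's quasi-likelihood fit. The 7 genes called lower run from KNG1 (-1.79) to F10 (-0.43), and PLAU (1.47) and F2R (0.41) are called higher.

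The 9 tested genes grouped as anticoagulants include SERPINA5, the protein C inhibitor. Of these 9 genes PROZ alone was called (11.1%, beside 6.2% of all genes called lower). The log2 fold changes of 8 of the 9 were below 0, as were those of 7007 of all 15528 tested genes. SERPINC1, antithrombin, the main plasma inhibitor of thrombin and factor Xa, had 18.8, 18.5 and 17.1 CPM in Ctrl and 14.4, 14.3 and 9.18 in siPAIP1. The groups did not overlap and siPAIP1 replicate 3 was far below the other siPAIP1 libraries. The log2 fold change of SERPINC1 was -0.52 (± 0.17 SE, edgeR adjusted p = 0.0872), and without that library it was -0.35 (adjusted p = 0.00721). SERPIND1, heparin cofactor II, a thrombin inhibitor, had 222, 209 and 217 CPM in Ctrl and 186, 168 and 134 in siPAIP1. Again replicate 3 was lowest. The log2 fold change of SERPIND1 was -0.41 (± 0.12 SE, edgeR adjusted p = 0.0667), with an adjusted p of 0.00664 without siPAIP1 replicate 3 and 0.0438 without siPAIP1 replicate 1. PROCR, the protein C receptor, had 2.36, 2.53 and 2.39 CPM in Ctrl and 1.63, 1.77 and 1.59 in siPAIP1, without overlap (-0.54 ± 0.15 SE, edgeR adjusted p = 0.0578).

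TFPI, which blocks the complex of tissue factor and factor VIIa, had 410, 352 and 373 CPM in Ctrl and 421, 402 and 335 in siPAIP1. These ranges overlapped, with a log2 fold change of 0.03 (95% interval -0.22 to 0.28). SERPINA5, the protein C inhibitor, had 305, 289 and 320.3 CPM in Ctrl and 281, 268 and 233 in siPAIP1, with no overlap and a log2 fold change of -0.22 (± 0.092 SE, edgeR adjusted p = 0.16). Exons of other genes on the same strand, SERPINA4 among them, cover 132 exon bases of SERPINA5.

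The thrombin receptor F2R and the related receptor F2RL1, both on chromosome 5, stood higher in siPAIP1. F2R had 16.3, 14.7 and 18.0 CPM in Ctrl and 20.7, 23.0 and 21.6 in siPAIP1, with no overlap. F2R (chr5:76716126-76735770, plus strand) rose 1.33-fold (log2 fold change 0.41 ± 0.097 SE, edgeR adjusted p = 0.0361). This call was lost without Ctrl replicate 1, 2 or 3 (adjusted p of 0.141, 0.112 and 0.0674), without siPAIP1 replicate 1 or 2 (0.0641 and 0.118), and with a replicate block (0.0916). F2RL1, a receptor cleaved by trypsin-like proteases, had 49.98, 44.2 and 50.01 CPM in Ctrl and 60.5, 69.3 and 53.2 in siPAIP1. All siPAIP1 libraries were above Ctrl, with replicate 3 the nearest. The log2 fold change of F2RL1 was 0.34 (± 0.11 SE, edgeR adjusted p = 0.086), or 0.43 without siPAIP1 replicate 3 (adjusted p = 0.000792).

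Other genes of hemostasis that were not in the list numbered 27, of which 22 were tested, with F13A1 and LPA not analysed here. Of these, 3 fell (13.6%) and 0 rose by edgeR's quasi-likelihood test, beside 6.2% and 5.68% of all genes. At an unadjusted p under 0.05 in the same test, 7 of the 22 were lower and 1 was higher. The share of all genes at that threshold is not given here. Leaving out siPAIP1 replicate 3 called 1 higher, beside 11.8% of all genes. A2M, a broad protease inhibitor, fell from 361 ± 12.9 to 222 ± 41.8 CPM (SD, n = 3 each; log2 fold change -0.70 ± 0.13 SE, edgeR adjusted p = 0.0163). MCFD2, which with LMAN1 carries factors V and VIII out of the endoplasmic reticulum, fell from 204 ± 7.94 to 143 ± 16.7 CPM (-0.51 ± 0.098 SE, edgeR adjusted p = 0.0175). SERPINA1, alpha-1-antitrypsin, fell from 3391 ± 87.9 to 2490.0 ± 335.8 CPM (-0.45 ± 0.11 SE, edgeR adjusted p = 0.0402). LMAN1 had a log2 fold change of -0.31 (± 0.084 SE, edgeR adjusted p = 0.056). Without Ctrl replicate 1, 2 or 3, or siPAIP1 replicate 2, 0 of these genes were called lower, and without siPAIP1 replicate 3 there were 9.

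The number of coagulation genes called depended on single libraries. Without Ctrl replicate 1 there were 3 lower and 1 higher (1.81% and 1.17% of all genes), without Ctrl replicate 2 there were 6 and 1 (2.63% and 1.68%), and without Ctrl replicate 3 there were 4 and 0 (1.68% and 1.21%). Without siPAIP1 replicate 1 there were 8 and 1 (4.05% and 3.57%), and without siPAIP1 replicate 2 there were 4 and 1 (2.2% and 1.85%). Without siPAIP1 replicate 3 there were 10 lower and 3 higher (12.4% and 11.8%). These 13 held all 9 genes of the full comparison and SERPINC1, SERPIND1, PROC and F2RL1. Without Ctrl replicate 2 and siPAIP1 replicate 3 together there were 12 and 4 (16.5% and 15.3%).

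Other settings gave 5 to 9 lower genes and 1 or 2 higher. The counts were 7 and 2 with RLE factors (6.36% and 5.19% of all genes) and with upper-quartile factors (5.2% and 5.06%), 9 and 2 with no filter (3.25% and 3.85%) and with DESeq2 (6.8% and 5.55%), and 8 and 2 with a filter at 1 CPM (7.66% and 6.92%). The limma fit on FPKM gave 6 and 1 with a pseudocount of 0.1 (1.32% and 1.71%) and 5 and 1 with a pseudocount of 1 (1.21% and 1.51%). A replicate block gave 6 and 1 (2.96% and 2.36%). On the log2(FPKM + 1) scale, which understates changes of low genes, the differences of KNG1, PROZ and PLAU were -0.40, -0.72 and 0.58. Both limma fits lost the calls of CPB2 and F2R, and the latter also that of F5. SERPINF2, PROZ and GGCX were called in each of these analyses. In siPAIP1 replicate 3, 22 of the 31 genes were below the mean of the other siPAIP1 libraries (median log2 difference -0.17, and -0.01 over all tested genes).

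The word that pairs with the seed of siRNA3 was looked for in the 3' untranslated regions of these genes, because an siRNA can lower transcripts that match bases 2 to 8 of its guide strand. The guide strands of both siRNAs are shown 5' to 3' with the seed in capitals.
siRNA3: uAUCAUCCaaguauggauc
control siRNA: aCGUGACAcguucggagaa

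The site of the siRNA3 seed, GGATGAT, was present in 0 of the 31 tested genes, and in 8.49% of 12585 tested genes with a canonical 3' untranslated region (GENCODE release 44). Among all genes called lower it was present in 13.5% and among those called higher in 6.19%. The site of the control siRNA seed, TGTCACG, was found in 1 of the 31, SERPINF2, and in 2.96% of all. The 3' untranslated regions of the 31 genes ran from 15 bases (F10) to 5217 (GGCX), and these shares take no account of length. A match is a description of the letters and does not show binding. The part of seed effects in the results was not tested.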

How the data were processed

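RNA-seq of HepG2 cells was analysed from 2 deposited tables with 3 libraries per group. The authors trimmed reads (FASTX-Toolkit 0.0.13), aligned them to GRCh38 with TopHat2 and deposited raw counts of uniquely mapped fragments per gene. The authors also deposited FPKM per gene with 2 decimals. Libraries were directional, and the sources used here do not give the counting tool, annotation release or strand setting. FPKM sums were lower in siPAIP1 replicate 3 (412788) than in the other libraries (480363 to 499948), so FPKM was used for levels between genes in Ctrl and CPM for comparisons.

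Counts of 30987 genes were scaled by TMM in edgeR 4.0.16 (R 4.3.3), filtered with filterByExpr to 15528 genes and compared by glmQLFit and glmQLFTest with group as the only term and Benjamini-Hochberg adjustment over all genes tested. A gene was called at an adjusted p under 0.05. The 95% intervals came from the same fit. The test was run on simulated counts, where it recovered large fold changes and missed small ones, so a gene that was not called may still have changed. Ratios of gene pairs were compared by exact permutation (scipy 1.17.1). Alternatives were RLE and upper-quartile factors, other filters, DESeq2 1.42.0, limma 3.58.1 on log2(FPKM + 0.1) and log2(FPKM + 1), a replicate block, leaving out each library, and leaving out Ctrl replicate 2 with siPAIP1 replicate 3. Intervals and p-values measure the spread between these libraries. The members and gene lists were chosen with earlier results of these data known. All members are named, with other hemostasis genes and markers named when called. Some genes of the marker lists are not reported here. Positions and overlaps are from GENCODE release 44 and promoter windows from RefSeq, both on GRCh38.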

Additional observations from a re-analysis of the deposited data

How the results depend on the processing

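All 9 calls were shared by the chosen test, RLE and upper-quartile factors, both other filters and DESeq2. A call at an adjusted p under 0.05 and at least 2-fold left 3 genes of the list lower and 1 higher, and 171 and 173 of all genes. Without Ctrl replicate 2 and siPAIP1 replicate 3, the pair richest in multiply mapped reads, the counts were 12 lower and 4 higher of the list (beside 16.5% and 15.3% of all genes), 10 and 1 of the other hemostasis genes, and 2552 and 2363 of all genes. The limma fit on FPKM called 1 higher gene of the list with either pseudocount, 0 other hemostasis genes lower, and 312 lower and 403 higher of all genes with a pseudocount of 0.1, or 287 and 356 with 1. The cause was not tested.

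Same-numbered libraries did not pair: the correlations of their deviations from the group means were 0.26, -0.277 and -0.152. With the replicate number as a block, 1 gene of the list was called higher (F5 and F2R lost their calls), and 459 and 366 of all genes were called lower and higher. The block turned no direction. The ratios of gene pairs could pass no threshold in either form, since the lowest possible p is 0.1 without the block and 0.25 with it.

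With 1 library left out, 3 to 10 genes of the list were called lower and 0 to 3 higher, 0 to 9 other hemostasis genes lower and 0 to 1 higher, and 269 to 1952 of all genes lower and 187 to 1857 higher. The median of the list was between -0.24 (without siPAIP1 replicate 1) and -0.09 (without siPAIP1 replicate 3). PAIP1 kept its direction and call in every analysis run.

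Signs turned only in genes that were not called. F2 had -0.01 with DESeq2 and -0.0019 without both libraries. The latter setting gave 0.07 for F7, -0.21 for F8, 0.11 for FGA, 0.0035 for FGB, 0.05 for FGG and 0.0014 for SERPINA10. With 1 library left out, log2 fold changes ran from -0.0042 to 0.04 for F2, -0.12 to 0.09 for F7, -0.09 to 0.35 for F8, -0.15 to 0.08 for FGA, -0.30 to -0.01 for FGB, -0.24 to 0.04 for FGG, -0.02 to 0.2 for PLAT and -0.04 to 0.12 for TFPI. Of the values of the 9 called genes under 15 alternatives, 111 kept their side of the threshold and 24 lost it, and none turned sign. Arms with 2 libraries have fewer degrees of freedom, and the few fragments of F8, F13B, PLAT and PLAU are limited by counting error.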

Other observations

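Among transcription factors that act on liver genes, CEBPA fell from 186 ± 5.29 to 120.0 ± 8.43 CPM (SD, n = 3 each; log2 fold change -0.63 ± 0.076 SE, edgeR adjusted p = 0.0044) and STAT3, which carries interleukin-6 signals to the fibrinogen genes among others, rose from 100.6 ± 2.60 to 152 ± 17.8 CPM (0.60 ± 0.094 SE, edgeR adjusted p = 0.00943). HNF4A, CEBPB, FOXA1 and FOXA2 were not called, with log2 fold changes from -0.25 to -0.13, and ONECUT1 had 1.19 (± 0.78 SE, edgeR adjusted p = 0.341) from counts of 30, 23 and 168 in siPAIP1 replicates 1 to 3, and it was -0.42 without replicate 3. Their relation to the coagulation genes was not tested.

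Some genes that serve as markers of other cells were present in these HepG2 libraries and moved. TUBB1, a tubulin known from platelets, fell from 7.57 ± 0.351 to 2.94 ± 0.334 CPM (log2 fold change -1.36 ± 0.13 SE, edgeR adjusted p = 0.00185), while GP9 had no fragment in any Ctrl library. ACTA2, a smooth muscle actin, rose from 87.6 ± 3.17 to 139.7 ± 16.7 CPM (0.67 ± 0.099 SE, edgeR adjusted p = 0.00753), while DCN and LUM were near 0. LYZ, lysozyme, had a mean of 269.9 FPKM in Ctrl, beside 0.00333 for CSF1R.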
